A study of Mus musculus with 4 samples.

Results

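The genes described are 10 genes of neural progenitors: Fabp7, Nes and Vim, which mark radial glia and neural stem cells; Notch1, Notch2 and Hes1 of the Notch pathway; and the inhibitors of differentiation Id1, Id2, Id3 and Id4. They were chosen by name, 10 of the 8236 genes with probe sets of their own, and every probe set whose annotated symbol is one of these names was taken: 13 of 12469 probe sets on the array. Of these, 10 probe sets for 9 genes were bright enough to be tested, meaning that their signal exceeded the median of all values (145.05) on at least 2 of 4 arrays. The single Vim probe set and the second probe sets of Nes and Notch2 were not. Expression had been measured in 4 clonal lines of c17.2, a line of mouse neural stem cells immortalised from neonatal cerebellum, all kept in proliferating conditions and each measured on 1 Affymetrix array. Clone 42 and clone 48 carry a stable transgene for Nurr1, an orphan nuclear receptor (gene Nr4a2), whereas puroB and puroD carry the puromycin vector without insert. By the sample descriptions, clone 42 had been matched with puroB, and clone 48 with puroD, for similar proliferation rates; the design text of the series writes clone 42 in both pairs, with the abbreviation of clone 48 in the second, and the descriptions were followed. Each line is 1 clone, so that a difference between the groups rests on 2 clones per group. What drives the Nurr1 transgene is not stated in the labels.

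Radial glia are the progenitors that line the ventricle and give rise to neurons and glia; their processes hold the intermediate filament proteins nestin and vimentin, and their cytoplasm the fatty acid-binding protein Fabp7. A Notch receptor is cleaved when a neighbouring cell presents a ligand, and its inner part then joins the DNA-binding protein Rbpj to switch on repressors such as Hes1, which hold back neuronal genes. Id proteins have a helix-loop-helix domain but no DNA-binding region; they capture E proteins and so also hold back differentiation, and bone morphogenetic proteins induce them.

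Fabp7 was the gene of the largest difference among the 10, and its upstream sequence is shown with that of Id4, because of 8 windows read these were the only ones to hold the short motifs searched. Each line is the 250 bases before the annotated start, read 5′ to 3′ along the gene's strand, from RefSeq sequence of build GRCm38.p6. Capitals mark the half-site of nuclear receptors, AGGTCA, and the core of the Rbpj site, TGGGAA, each searched on both strands.
Fabp7, chr10:57784673-57784922, plus strand: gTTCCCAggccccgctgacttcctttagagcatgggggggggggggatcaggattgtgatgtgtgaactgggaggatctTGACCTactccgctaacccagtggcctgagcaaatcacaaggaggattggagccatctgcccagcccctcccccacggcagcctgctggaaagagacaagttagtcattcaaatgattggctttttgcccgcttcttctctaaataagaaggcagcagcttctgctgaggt
Id4, chr13:48260866-48261115, plus strand: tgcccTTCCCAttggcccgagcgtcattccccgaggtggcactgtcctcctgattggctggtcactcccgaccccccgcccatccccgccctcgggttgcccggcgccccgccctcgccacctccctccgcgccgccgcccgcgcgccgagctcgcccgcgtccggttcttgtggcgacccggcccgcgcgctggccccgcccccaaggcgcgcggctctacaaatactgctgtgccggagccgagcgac

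In the Fabp7 window the half-site lay on the minus strand at bases -171 to -166 from the start, and the Rbpj core on the minus strand at bases -249 to -244. In the Id4 window the Rbpj core lay at bases -245 to -240, also on the minus strand. The half-site was in 1 of the 8 windows that matched the genes (Fabp7) and in 14% of all 32851 windows, and the Rbpj core in 2 of 8 (Fabp7 and Id4) and in 21.6% of all. The longer site to which Nurr1 binds as a monomer, AAAGGTCA, which contains the half-site, was in 0 of the 8 and in 1.34% of all. A match is a description of these letters and not a site of binding. Windows for Hes1 and Id1 were not used here.

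Median signals were 147.1 and 125.6 on the arrays of clone 42 and clone 48, against 160.1 and 145.9 on those of puroB and puroD. The actin control's ratio of 3′ over 5′ signal, which rises as RNA degrades, was 1.68 and 2.41 in clone 42 and clone 48, against 1.51 and 2.0 in their matches puroB and puroD, so that it was higher in the Nurr1-labelled clone of both pairs. Its part in the results below was not tested. The highest signal among 15 control probe sets for transcripts not spiked in lay between 39.1 and 62.7 on the 4 arrays and serves as a background level. Nr4a2 itself was not higher in the clones labelled Nurr1: its brighter probe set (92248_at) had signals of 320 (clone 42) and 206 (clone 48) in Nurr1-labelled clones, against 485 (puroB) and 254 (puroD) in controls. Its other probe set (92249_g_at) had 188 (clone 42) and 113.5 (clone 48) in Nurr1-labelled clones, against 371.9 (puroB) and 213.2 (puroD) in controls, a mean log2 difference of -0.95 (limma adjusted p = 0.453, unadjusted 0.0151), with no overlap. Whether the probes lie within the transfected sequence is not known, so this does not settle the labels, and every direction below is that of the labels. In RNA from whole cultures, fewer cells of a type and less RNA per cell cannot be told apart.

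Setting the Nurr1-labelled clones against the controls asks whether progenitor genes differ in level where Nurr1 was to be overexpressed. Fabp7 had the largest difference, 2.29-fold lower in clone 42 than in puroB and 9.78-fold lower in clone 48 than in puroD. By tested probe sets, no other gene of the group had a mean log2 difference beyond 0.67 in size, and none passed the test. By the brightest tested probe set of each gene, 7 of 9 genes were lower in both matched pairs (Fabp7, Notch1, Notch2, Hes1, Id1, Id2 and Id4), although further probe sets of Notch1 and Notch2 pointed the other way, 1 was higher in both (Id3) and 1 differed in direction (Nes). Over all 6419 tested probe sets, 29.7% were lower in both pairs, 21.7% were higher in both and 48.7% differed in direction. Of the 10 tested probe sets, 6 had both Nurr1-labelled clones under both controls and 1 had both over them, as did 17.9% and 12.8% of all tested probe sets. The median log2 difference of the 9 genes was -0.53, beside -0.04 over all tested probe sets. None of the 10 tested probe sets passed an adjusted p of 0.05 in limma (0 calls, with 1 at an unadjusted p under 0.05); over all tested probe sets 0.109% passed and 7.38% had an unadjusted p under 0.05.

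**Figure D1:**
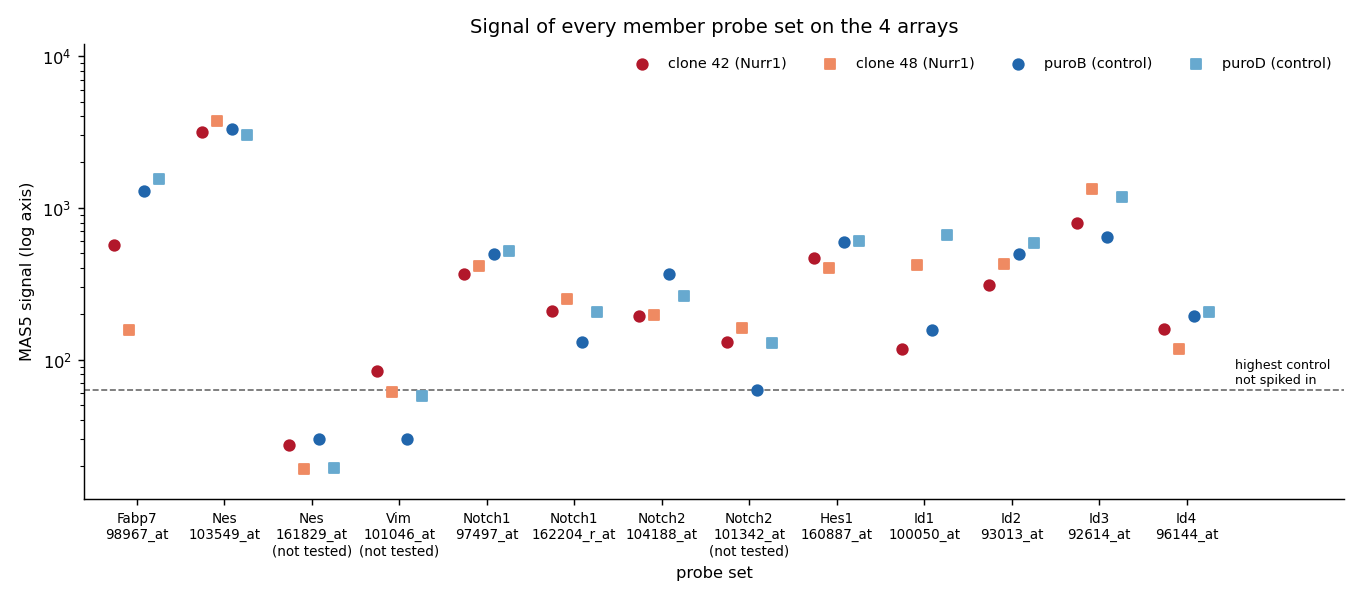
MAS5 signal (log axis) of each of the 13 probe sets on the 4 arrays, with clone 42 and clone 48 in red and orange and puroB and puroD in dark and light blue; the dashed line is the highest control not spiked in (62.6 after scaling). Fabp7 is lowest in clone 48 (157.3), Id1 is low in clone 42 and puroB alike, and Nes 103549_at runs from 3030 to 3720.

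Fabp7, which binds fatty acids in radial glia, had a signal of 564.5 (clone 42) and 157.3 (clone 48) in Nurr1-labelled clones, against 1292.5 (puroB) and 1539.0 (puroD) in controls (probe set 98967_at). The groups did not overlap: the control clones were alike, within 1.19-fold, whereas the Nurr1-labelled clones differed from each other by 3.59-fold. The log2 difference was -1.20 for clone 42 minus puroB and -3.29 for clone 48 minus puroD. The SE from limma, drawn mostly from all tested probe sets, does not measure that gap. The mean log2 difference was -2.24 ± 0.40 (SE, n = 2 clones per group), the seventh largest of 6419, with an adjusted p of 0.0503 in limma. It thus missed the threshold narrowly, and across 12 alternative settings its adjusted p ran from 2.41e-07 to 0.903, with 4 settings under the threshold. The size rested in part on clone 48: the difference was -1.32 without it (adjusted p = 0.0997) and -3.16 without clone 42 (adjusted p = 0.00023). Each of these fits leaves the pairing out and has 1 Nurr1-labelled clone, which is assumed to vary as the controls did. The fit without clone 42 is 1 of the 4 settings.

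Nes, the intermediate filament protein nestin, varied little between clones, with signals of 3174 (clone 42) and 3720 (clone 48) in Nurr1-labelled clones, against 3325 (puroB) and 3030 (puroD) in controls (103549_at). The groups overlapped, and the mean log2 difference was 0.11 ± 0.31 (SE, n = 2 per group; limma adjusted p = 0.995). Its second probe set (161829_at) was at background on all arrays, with 27.3 (clone 42) and 18.9 (clone 48) in Nurr1-labelled clones, against 29.8 (puroB) and 19.4 (puroD) in controls. Vim, the filament protein vimentin, had 84.6 (clone 42) and 61.5 (clone 48) in Nurr1-labelled clones, against 29.8 (puroB) and 57.7 (puroD) in controls (101046_at). The Nurr1-labelled clones were the higher ones, but in puroB and puroD these signals were below the background level of their array (49.8 and 59.1), and this probe set was not tested. No size of a vimentin difference can be read from it.

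The receptors Notch1 and Notch2 each had a pair of probe sets, and in both genes the pair pointed in opposite directions. The brighter Notch1 probe set (97497_at) had 365.8 (clone 42) and 415.1 (clone 48) in Nurr1-labelled clones, against 494.9 (puroB) and 523.1 (puroD) in controls. Both Nurr1-labelled clones lay under both controls, with a mean log2 difference of -0.38 ± 0.29 (SE, n = 2 per group; limma adjusted p = 0.896). The other Notch1 probe set (162204_r_at) had 207.8 and 251.9 in clone 42 and clone 48, against 130.8 and 205.6 in puroB and puroD. Here both Nurr1-labelled clones lay over both controls, with a mean difference of 0.48 ± 0.35 (adjusted p = 0.895). The direction for Notch1 is therefore not settled by these arrays.

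The brighter Notch2 probe set (104188_at) had 192.7 (clone 42) and 196.2 (clone 48) in Nurr1-labelled clones, against 363.6 (puroB) and 261.8 (puroD) in controls, again without overlap. Clone 42 was 1.89-fold lower than puroB and clone 48 was 1.33-fold lower than puroD, with a mean log2 difference of -0.67 ± 0.33 (SE, n = 2 per group; limma adjusted p = 0.717). The dimmer Notch2 probe set (101342_at), which was not tested, had 130.4 and 161.8 in clone 42 and clone 48, against 63.3 and 129.1 in puroB and puroD. It was higher in both pairs, by 2.06-fold and 1.25-fold, so that Notch2 has no settled direction either. When the median over a gene's tested probe sets was used, 6 rather than 7 genes were lower in both pairs.

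Hes1, the repressor that Notch signalling switches on, had 468.0 (clone 42) and 402.5 (clone 48) in Nurr1-labelled clones, against 596.6 (puroB) and 606.7 (puroD) in controls (160887_at). The controls were within 1.02-fold of each other and both Nurr1-labelled clones lay under them, by 1.27-fold and 1.51-fold in the matched pairs. The mean log2 difference of -0.47 ± 0.29 (SE, n = 2 per group) did not pass (limma adjusted p = 0.841).

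**Figure D2:**
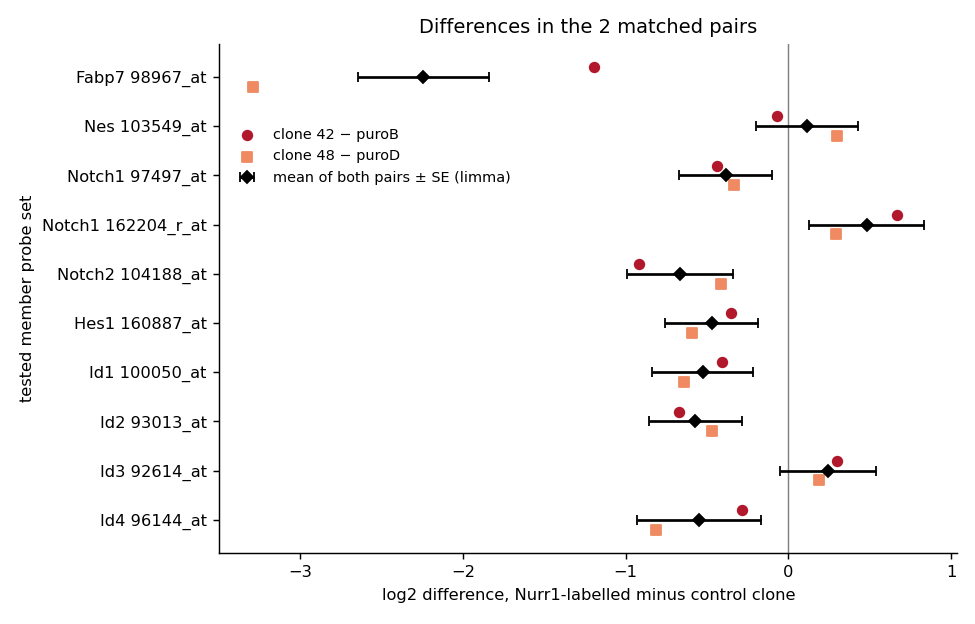
Log2 difference of Nurr1-labelled minus control clone for the 10 tested probe sets: clone 42 minus puroB in red, clone 48 minus puroD in orange, and the mean of both pairs with its SE from limma in black. Fabp7 stands at -2.24, 7 probe sets have both pairs below 0, and the Notch1 probe sets lie on opposite sides of 0.

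The Id genes differed in how they varied. Id2 had 310.9 (clone 42) and 426.7 (clone 48) in Nurr1-labelled clones, against 495.9 (puroB) and 590.1 (puroD) in controls (93013_at), without overlap and with a mean log2 difference of -0.57 ± 0.29 (SE, n = 2 per group; limma adjusted p = 0.740). Id4 had 159.2 (clone 42) and 117.5 (clone 48) in Nurr1-labelled clones, against 193.6 (puroB) and 206.8 (puroD) in controls (96144_at), also without overlap, at -0.55 ± 0.38 (adjusted p = 0.879).

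For Id1 and Id3 both clones of the first pair, clone 42 and puroB, lay under both clones of the other pair, whatever their label; these were 2 of the 10 tested probe sets, and in 40.2% of all tested probe sets the pairs did not overlap. Id1 had 117.7 (clone 42) and 421.5 (clone 48) in Nurr1-labelled clones, against 156.3 (puroB) and 658.5 (puroD) in controls (100050_at). Within each pair the Nurr1-labelled clone was the lower one, by 1.33-fold and 1.56-fold, but the groups overlapped because both clones of the first pair were low. The mean log2 difference by label was -0.53 ± 0.31 (SE, n = 2 per group; limma adjusted p = 0.841). It was 0.39 without clone 42 and 0.51 without puroD, in fits that left the pairing out and so compared clones across pairs. The pair left whole had -0.64 (clone 48 minus puroD) and -0.41 (clone 42 minus puroB), respectively. Id3 had 792.8 (clone 42) and 1337.9 (clone 48) in Nurr1-labelled clones, against 644.1 (puroB) and 1174.9 (puroD) in controls (92614_at). It was the 1 Id gene higher in both pairs, by 1.23-fold and 1.14-fold, at 0.24 ± 0.30 (adjusted p = 0.969). The difference was -0.13 without clone 48 and -0.19 without puroB, again in fits that left the pairing out. The pair left whole had 0.30 (clone 42 minus puroB) and 0.19 (clone 48 minus puroD), respectively.

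The contrast of the pair of clone 42 and puroB with the pair of clone 48 and puroD was therefore read from the same fit, after these values had been seen. Id1 was 3.58-fold lower in clone 42 than in clone 48 and 4.21-fold lower in puroB than in puroD. The mean log2 difference between the pairs was -1.96 ± 0.31 (SE, n = 2 clones per pair; limma adjusted p = 0.0259), the tenth largest of 6419. It was the 1 of 10 tested probe sets to pass, where 0.483% of all did, and the call was lost in 6 of 11 alternative settings, with values from -2.28 to -1.64. Leaving out clone 42, clone 48 or puroD each ended it (adjusted p = 0.154, 0.814 and 0.619), in fits where the lone clone of a pair is assumed to vary as the other pair did. The group was also left out of these fits without 1 clone. With all clones, Id3 was lower in the first pair too, with -0.81 ± 0.30, and did not pass (adjusted p = 0.297, unadjusted 0.0162). Fabp7 had 0.80 ± 0.40 (adjusted p = 0.527), with 1.84 between clone 42 and clone 48 and -0.25 between puroB and puroD.

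**Figure D3:**
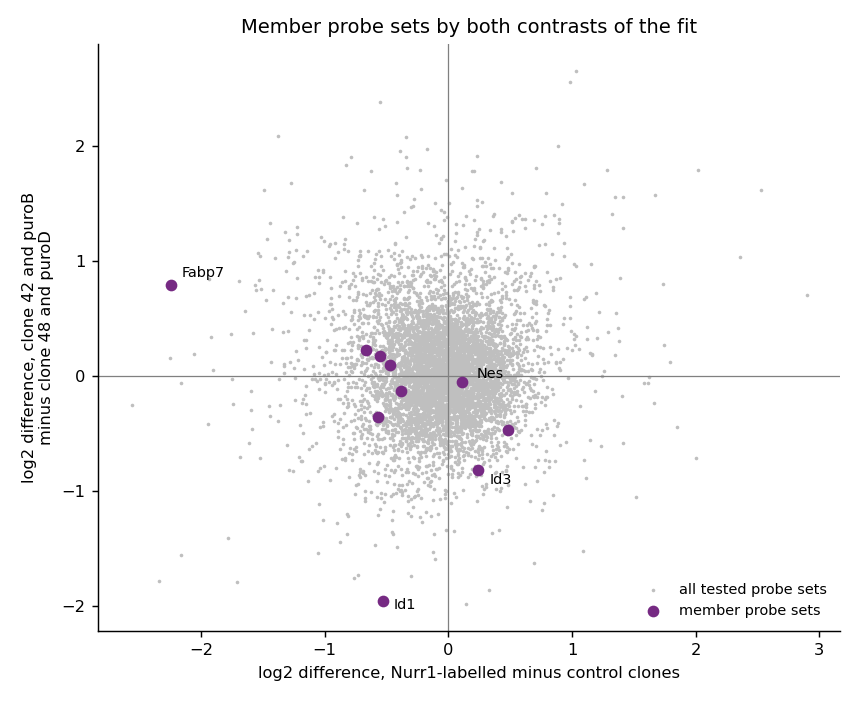
Each grey point is 1 of 6419 tested probe sets, placed by its mean log2 difference of Nurr1-labelled minus control clones (horizontal axis) and of clone 42 and puroB minus clone 48 and puroD (vertical axis); purple points are the 10 tested member probe sets. Fabp7 lies far to the left at -2.24, and Id1 far down at -1.96.

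Other genes of the same pathways were read from lists. Of 8 further Notch ligands and receptors, 3 were tested; 0 passed, 2 were lower and 1 higher in both pairs. The receptor Notch3 had 143.8 (clone 42) and 266.6 (clone 48) in Nurr1-labelled clones, against 315.4 (puroB) and 327.6 (puroD) in controls, a mean log2 difference of -0.72 ± 0.34 (limma adjusted p = 0.678). Notch4 had -0.43 (adjusted p = 0.870) and the Notch ligand-like protein Dlk1 0.31 (adjusted p = 0.949). Of 21 genes of Notch processing and modulation, 11 were tested and 0 passed; 5 were lower and 2 higher in both pairs, with the glycosyltransferase Mfng at -0.51, the protease Furin at 0.44 and Aph1a, a subunit of gamma-secretase, at -0.33. The median log2 difference of these 11 was -0.10.

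Of 22 genes of the Notch nuclear complex and the Hes and Hey family, 6 were tested and 0 passed. Hes6, a Hes protein that opposes Hes1, had 307.3 (clone 42) and 185.2 (clone 48) in Nurr1-labelled clones, against 173.4 (puroB) and 154.2 (puroD) in controls, a mean log2 difference of 0.54 ± 0.35 (limma adjusted p = 0.861), and was the 1 gene of the list higher in both pairs. Rbpj, the DNA-binding partner of the receptors, was the 1 lower in both, at -0.34 (adjusted p = 0.934). The median of the list was 0.01. The other 4 differed in direction between the pairs.

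E proteins and other basic helix-loop-helix factors are the partners that Id proteins capture. Of 19 such genes 6 were tested and 0 passed, with 2 higher and 2 lower in both pairs and a median of 0.10. The Twist genes had the largest differences and pointed in opposite directions: Twist2 had 1.29 ± 0.31 (limma adjusted p = 0.134), with 556.9 (clone 42) and 358 (clone 48) in Nurr1-labelled clones, against 190.7 (puroB) and 174.1 (puroD) in controls. Twist1 had -1.21 ± 0.45 (adjusted p = 0.478), with a signal in clone 42 of 53.9, below the background level of that array. It was bright enough to be tested only through the control clones, with 189.8 (puroB) and 202.2 (puroD), against 133.5 in clone 48. The E protein Tcf12 had -0.34 (adjusted p = 0.934).

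Of 18 further radial glia and neural stem markers, 7 were tested; Tnc, the matrix glycoprotein tenascin C of the stem cell niche, passed as higher (2.90 ± 0.43, SE, n = 2 per group; limma adjusted p = 0.0487), and 0 passed as lower. Tnc was bright enough to be tested only through the Nurr1-labelled clones, with 1475 (clone 42) and 409.4 (clone 48), against 89.7 (puroB) and 121.2 (puroD) in controls, and its call was lost in 6 of 11 alternative settings (adjusted p up to 0.903). Glutamine synthetase (Glul), at -0.40, and N-cadherin (Cdh2), at 0.30, were the other genes of 1 direction in both pairs, and the median of the list was 0.09. Of 16 intermediate filament genes and partners 6 were tested; the linker plectin (Plec) passed as lower (-1.92 ± 0.32, adjusted p = 0.0487), a call lost in 8 of 12 alternative settings (adjusted p up to 0.903), and the neurofilament chains Nefl and Nefm had 1.67 and 1.61 (adjusted p = 0.105 and 0.0853). The mean difference of nestin, 0.11, was smaller in size than that of each of these 6. Of these, Nefm was bright enough to be tested only through the Nurr1-labelled clones. Fabp5, the 1 tested fatty acid-binding protein besides Fabp7, had 0.38 (adjusted p = 0.911), the opposite sign to Fabp7.

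**Figure D4:**
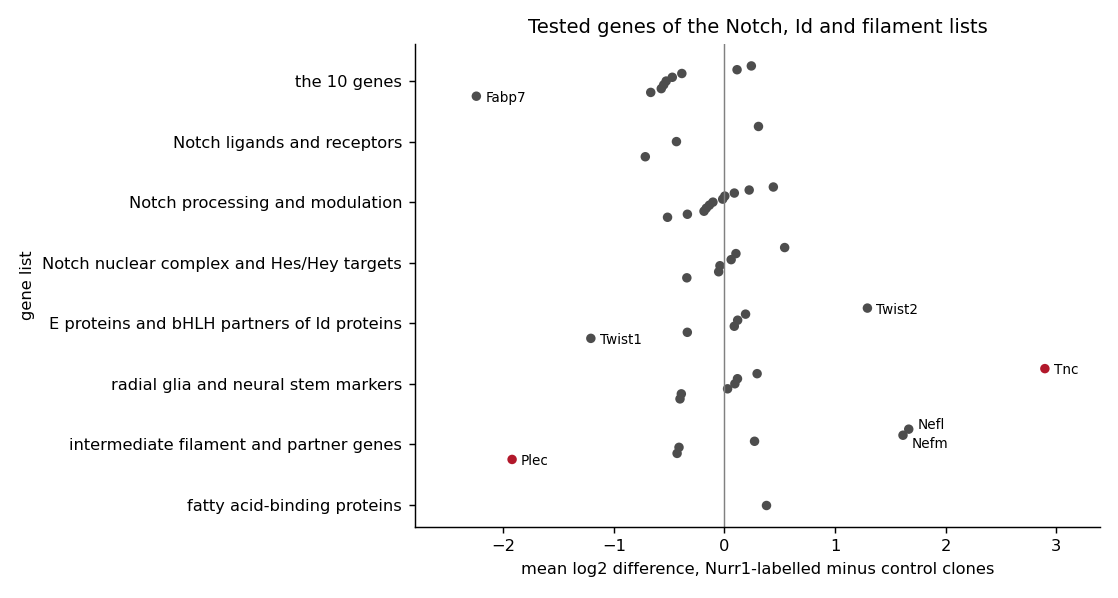
Mean log2 difference of Nurr1-labelled minus control clones for each tested gene, by list; each point is 1 gene by its brightest probe set, and red points passed an adjusted p of 0.05 in limma. Tnc (2.90) and Plec (-1.92) are the red points, and the genes of the 3 Notch lists lie between -0.72 and 0.54.

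Markers of other cell types were read beside these genes. Of 9 neuron markers, 3 were tested, and all 3 (Tubb3, Nefl and Nefm) were higher in both pairs, though none passed (limma adjusted p = 0.371, 0.105 and 0.0853). Nefm was bright enough to be tested only through the Nurr1-labelled clones, with 380.5 (clone 42) and 349.7 (clone 48), against 109.8 (puroB) and 129.2 (puroD) in controls. The summed signal of the 3 was 6573 (clone 42) and 5347 (clone 48) in Nurr1-labelled clones, against 2911 (puroB) and 3019 (puroD) in controls. Most of this sum was Tubb3 (160462_f_at), with 5688 (clone 42) and 4632.6 (clone 48), against 2703.2 (puroB) and 2703.6 (puroD). Other neuronal genes, too dim to be tested, ran the other way: Map2, a microtubule-associated protein, had 45.8 and 4.2 in clone 42 and clone 48, against 198.1 and 120.3 in puroB and puroD, and the neurofilament chain Nefh had 45.6 and 10.3 in clone 42 and clone 48, against 88.5 and 87.1 in puroB and puroD. The synaptic genes Snap25 and Syp were at background on all 4 arrays. The 4 tested fibroblast markers of 7 summed to 8614 (clone 42) and 5959 (clone 48) in Nurr1-labelled clones, against 2850 (puroB) and 4014 (puroD) in controls. Most of this sum was the collagen gene Col3a1 (5020 and 4010 in clone 42 and clone 48, against 1288 and 1750.5 in puroB and puroD), the 1 of the 4 that was higher in both pairs; the other 3 (Col1a1, Col1a2 and Fn1) differed in direction. The 2 tested astrocyte markers of 6 summed to 4304 and 3156 in clone 42 and clone 48, against 5023 and 5160 in puroB and puroD. Most of this was Gja1, which was lower in both pairs and lies near Fabp7 on the chromosome, whereas S100b differed in direction (1601 and 509.5 in clone 42 and clone 48, against 735.9 and 625.8 in puroB and puroD). The astrocyte filament gene Gfap had 57.1 and 133.2 in clone 42 and clone 48, against 120.3 and 31.8 in puroB and puroD (94144_g_at). Of 8 oligodendrocyte markers 3 were tested and summed to 435.3 and 273.9 in clone 42 and clone 48, against 558.5 and 481.1 in puroB and puroD, with the myelin gene Mog at background. Of the 3, Pdgfra and Mbp were lower in both pairs and Mag differed in direction. Pdgfra had 223.1 (clone 42) and 29.4 (clone 48, below background), against 232.4 (puroB) and 212 (puroD) in controls. Mbp was bright enough to be tested only through the control clones. The 3 tested microglia and macrophage markers of 6 summed to 647.3 and 431.1 in clone 42 and clone 48, against 672.3 and 652.2 in puroB and puroD, with Aif1 and Itgam at background. Cd14 and C1qb were lower in both pairs, whereas Csf1r differed in direction. The 1 tested endothelial marker of 5, Eng, had 3172 and 4016 in clone 42 and clone 48, against 4018 and 4421 in puroB and puroD. The part of any other cell type in the differences of Fabp7 was not tested. As a check of the label, of the 6 neural stem markers Nes was strong on all arrays and Msi1, an RNA-binding protein of neural stem cells, exceeded the controls not spiked in on all 4 (132.3 and 80 in clone 42 and clone 48, against 102.9 and 181 in puroB and puroD); Pax6 and Prom1 were near background, and Sox2 and Slc1a3 were not analysed here.

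The 5 tested probe sets nearest to Fabp7 in their pattern over the 4 clones, by root mean square difference of centred log2 signals among 5819, were those of Smpdl3a (0.32), Plec (0.38), Sgip1 (0.41, with clone 48 at the floor), Traip (0.50) and Pkib (0.51). Traip was bright enough to be tested only through the control clones, with 212.8 (puroB) and 223.2 (puroD), against 61.5 (clone 42) and 44.8 (clone 48). Pkib and Smpdl3a are the protein-coding genes next to Fabp7 on either side on chromosome 10, in the gene order of RefSeq's GRCm38.p6 table. Their chromosomal order was looked up after these values had been seen. Smpdl3a, an acid sphingomyelinase-like phosphodiesterase, had 198.5 (clone 42) and 67.6 (clone 48) in Nurr1-labelled clones, against 386.8 (puroB) and 360.5 (puroD) in controls (94872_at). Its log2 differences in the pairs were -0.96 and -2.41, with a mean of -1.69 ± 0.39 (SE, n = 2 per group; limma adjusted p = 0.113). Pkib, an inhibitor of protein kinase A, had 159.4 (clone 42) and 62.5 (clone 48) in Nurr1-labelled clones, against 246.6 (puroB) and 243.2 (puroD) in controls (102858_at). Its mean difference was -1.29 ± 0.42 (adjusted p = 0.350).

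In these 3 adjacent genes the control clones were within 1.19-fold of each other, clone 42 was lower and clone 48 lower still. Farther out the pattern was not seen at that size. Serinc1, the next gene before Pkib, had 434.2 (clone 42) and 204.8 (clone 48) in Nurr1-labelled clones, against 332.9 (puroB) and 318.1 (puroD) in controls, so that it was lower in clone 48 (-0.64) and not in clone 42 (0.38). The connexin gene Gja1, 4 genes before Fabp7, had -0.67 and -0.78 in the pairs, and Lims1, 6 genes after it, -0.10 and -0.25. Of the 6 tested genes within 10 genes on each side, 4 were lower in both pairs (Gja1, Pkib, Smpdl3a and Lims1), a count that includes the pair of genes that led to this look-up. The genomic copy number of this region was not measured. The nearest tested neighbours of the other 9 genes had mean differences between -0.52 and 0.65, apart from Sox11. Sox11 lies 4 genes after Id2 and had a mean difference of -2.34. Its signals were 74.7 (clone 42) and 905 (clone 48) in Nurr1-labelled clones, against 1331 (puroB) and 1303 (puroD) in controls.

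**Figure D5:**
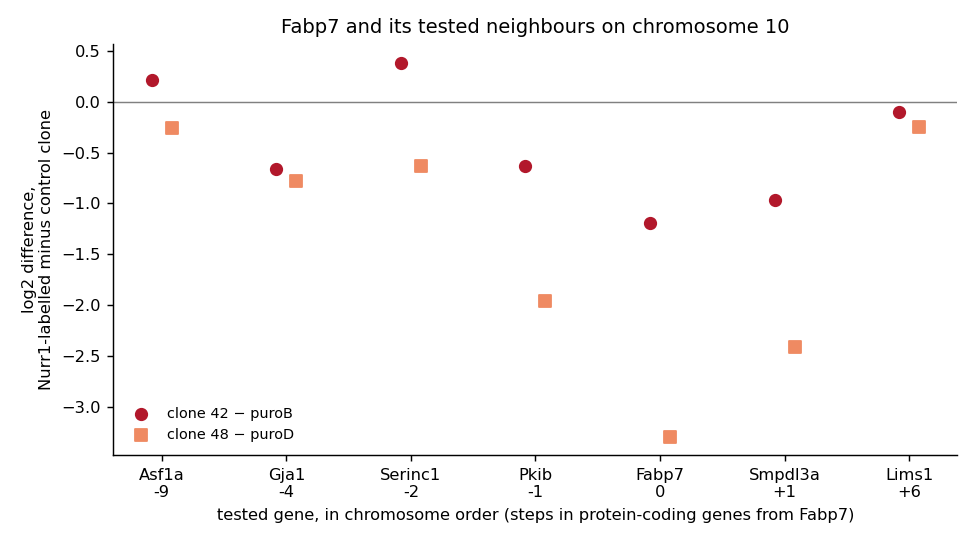
Log2 difference of clone 42 minus puroB (red circles) and clone 48 minus puroD (orange squares) for Fabp7 and the 6 tested genes within 10 protein-coding genes of it, in chromosome order; the number under each name is its distance from Fabp7 in genes. Pkib, Fabp7 and Smpdl3a, side by side, have the lowest values in clone 48.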

How the data were processed

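The authors deposited linear intensity values, 1 for each of 12469 probe sets on each array. They had been made with MAS5, Affymetrix's summary of probe pairs, per the submitters' processing notes; its version and settings are not given there. With 2% cut from each end, array means lay between 500.4 and 500.5, which shows prior scaling. Arrays were brought here to exactly 500, low values were raised to a floor at the 30th percentile (40.3), and log2 values were used. Without 66 array controls, 6419 probe sets were tested with limma 3.58.1 in R 4.3.3 (lmFit, pair as a block; eBayes, trend on; Benjamini-Hochberg over all of them). Residual degrees of freedom were 1, and the prior's 13.1. Each SE is therefore drawn mostly from all tested probe sets and less from the spread of its own clones. The pairing comes from the labels, which state matching by proliferation rate and not a shared batch. Arrays of a pair deviated from their groups together at r = 0.192 over probe sets, which are not independent. Signals are printed as deposited. Symbols are those of the platform annotation; RefSeq's GRCm38.p6 table gave gene order and upstream windows. The genes and lists were chosen with earlier results of these data known. Named were every probe set of the 10 genes, called list genes, up to 3 further genes per list of the largest difference of 1 direction, and the 5 probe sets most like Fabp7. The fit was run on simulated data with planted differences larger than any mean difference of the 10 genes. That run therefore does not show how calls behave at their sizes. Alternatives covered normalization, floor, filter, block, trend and each clone left out. The fits with a clone left out had no block. The number of arrays limits the precision.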

Additional observations from a re-analysis of the deposited data

Results flagged for a closer look

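Nes (103549_at) differed in opposite directions in the matched pairs. Its log2 difference was -0.067 for clone 42 minus puroB and 0.30 for clone 48 minus puroD. The difference between the pairs was not tested, because each clone has 1 array; both values are smaller than the SE of the mean difference, 0.31. Over all tested probe sets, 48.7% differed in direction between the pairs.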

How the results depend on the processing

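Of 117 values of the 10 tested probe sets by label under 12 alternatives, 108 kept their direction and their side of the threshold; 4 became calls, all of Fabp7: -2.07 with scaling to the median (adjusted p = 0.00244), -2.24 with the floor at the highest control not spiked in (0.037) and with the filter on all 4 arrays (2.41e-07), and -3.16 without clone 42, where clone 48 alone is assumed to vary as the controls did. Scaling to the median moved the median of all probe sets by 0.17 to 0.13, relative to which Fabp7 was -2.21. Signs turned for 5 values: Id1 (-1.56 to 0.51 over the fits without 1 clone), Id3 (-0.19 to 0.68) and Nes (-1e-04 to 0.23). The fits without 1 clone left the matched pair out as well, so that a difference between the pairs enters them. Within the pairs, Id1 was lower in both and Id3 higher in both. The count of calls by label, 7, was 0 with quantile normalization (372 at an unadjusted p under 0.05), no floor (473), no filter (560) or no replicate block, the matched pair left out (287), 56 with scaling to the median, 49 with the filter on all 4 arrays, and 0 to 51 without 1 clone (without puroB 203 at an unadjusted p under 0.05). Calls among the member probe sets numbered 1 with scaling to the median, the higher floor or the filter on all 4 arrays, and 0 to 1 without 1 clone. The 7 genes lower in both pairs numbered 6 with the median over a gene's tested probe sets, 5 of 7 tested with the filter on all 4 arrays, and 7 in the other settings with all clones; without 1 clone this count cannot be made.

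The contrast of the pairs was added after seeing the data. Its 31 calls were 0 with quantile normalization (575 at an unadjusted p under 0.05), no filter (682) or no replicate block (515), 71 with scaling to the median, 100 with the filter on all 4 arrays, 17 without the trend, and 0 to 129 without 1 clone (277 at an unadjusted p under 0.05 without clone 48 and 433 without puroD). The call of Id1 was lost, leaving 0 member calls, with quantile normalization, no filter or no replicate block, was not tested with the filter on all 4 arrays, and 0 to 1 calls were left without 1 clone. Of its 117 values, 12 turned sign: with quantile normalization Nes (0.0097) and Id4 (-0.0204), with scaling to the median Hes1 (-0.0843) and Id4 (-0.0095), and without 1 clone Nes (-0.20 to 0.10), Hes1 (-0.20 to 0.39), Id4 (-0.24 to 0.58), Notch1 97497_at (-0.35 to 0.0872), Notch2 104188_at (-0.23 to 0.68) and Fabp7 (-0.85 to 2.44). In the fits without 1 clone the group was left out of the model, so that a difference by label enters this contrast. The cause of these shifts was not tested. Signals under the highest control not spiked in of their array, which lay between 39.1 (clone 48) and 62.7 (clone 42), cannot be told from background.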

Other observations

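Listed genes without any probe set bright enough to be tested had 76 probe sets. Of these, 4 exceeded the background level of their array in both control clones and neither Nurr1-labelled clone (Ptprz1, Dll1, Map2 and Nefh), and 2 in both Nurr1-labelled clones and neither control clone (Vim and Pdgfrb). They were singled out after their values were seen. The same shares over all untested probe sets were not counted, so these counts are not a result about the listed genes. Ptprz1, a receptor phosphatase of radial glia, had 6.8 (clone 42) and 16.2 (clone 48) in Nurr1-labelled clones, against 141.1 (puroB) and 73.8 (puroD) in controls (92378_at), and both Nurr1-labelled arrays lay under their highest control not spiked in; its other probe sets were at background on all 4 arrays. The Notch ligand gene Dll1 had 21.4 (clone 42) and 17.1 (clone 48) in Nurr1-labelled clones, against 64 (puroB) and 76.2 (puroD) in controls (92931_at), and its other probe set was at background. Pdgfrb, a receptor for platelet-derived growth factor, had 195.9 (clone 42) and 53.6 (clone 48) in Nurr1-labelled clones, against 39.3 (puroB) and 18 (puroD) in controls (160867_at). The background level was lowest on the array of clone 48, at 39.1.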
